A study of Mus musculus with 36 samples.

Results

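The genes Ccr7, S1pr1, Klf2, Il7r, Tcf7, Lef1, Bach2, Foxo1 and Satb1 mark or maintain the resting state of naive and memory T cells, and their transcripts were followed across 12 groups of mouse CD4 T cell libraries. They were chosen by name and were 9 of the 56748 genes in the table, of which 37611 had at least 1 count. The study asked whether heterochromatin proteins set how strongly conventional T cells (Tconv) respond to suppression by regulatory T cells (Treg). In the HP1a line, Cbx5, which encodes the heterochromatin protein HP1a, was inactivated in all tissues by crossing a LoxP-flanked allele with CMV-cre mice, and WT cells came from Hp1a+/+ littermates. In the HP1g line, Cbx3, which encodes HP1g, was deleted in T cells by Cd4-cre, and WT cells came from littermates that carried the floxed allele without Cre. Both lines had a mixed 129/Sv and C57BL/6 background, and sex-matched littermates aged 6 to 12 weeks were used.

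Each line and genotype was sampled in 3 conditions. Naive cells were splenic CD4 T cells isolated with a kit that selects naive cells by surface markers, CD44 among them, so CD44 itself is no finding between naive and grafted cells. Tconv were such naive cells recovered 3 weeks after injection into lethally irradiated B6 hosts together with B6 and semi-allogeneic B6D2F1 bone marrow. These Tconv were sorted from the spleen as TCR Vβ6+ CD4 cells that lacked a surface marker of B6D2F1 cells. The paper calls them donor-specific, because Vβ6+ cells recognize a superantigen of the graft donor. Cells of the Tconv with Treg groups came by the same procedure from hosts injected in addition with WT Treg expanded ex vivo, which carried Thy1.1 and were kept out by the sort. There were 3 libraries per group, except 2 for HP1g KO Tconv with Treg, where the study had set 1 library aside for its GC content, exonic share and 5'-3' bias. Treg were injected at several ratios according to the methods, and the ratio behind each line is not given there, so the lines may differ in Treg dose. For the HP1g RNA experiment, the paper states that Treg at the ratio used did not effectively repress the allogeneic response of WT cells.

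The 35 libraries in use held 37029519 to 63042245 estimated counts (median 46844690), so that 3 counts corresponded to 0.0476 to 0.081 CPM, the unit of level used throughout (counts of a gene scaled to the size of its library). The targeted gene matched the label in every library in use. Cbx5 ranged from 9.25 to 19.7 CPM in HP1a KO and from 18.6 to 61.9 CPM in HP1a WT libraries, Cbx3 from 59.4 to 80.8 CPM in HP1g KO and from 79.5 to 200.1 CPM in HP1g WT libraries, and KO and WT did not overlap in any of the 3 conditions of either line. All 6 T cell markers tested exceeded 1 CPM in every group, with summed levels of 5590 to 9588 CPM. RNA of other cells was also present. The summed level of 6 erythroid markers reached 5048 CPM in HP1g libraries, and that of 10 myeloid markers reached 640 CPM in HP1a KO Tconv with Treg.

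Naive T cells circulate between blood and lymphoid organs, and this traffic depends on CCR7, the chemokine receptor for entry into lymph nodes, and on S1PR1, the sphingosine-1-phosphate receptor for exit. Klf2 encodes a transcription factor that drives S1pr1 and other homing genes. Il7r encodes the alpha chain of the interleukin-7 receptor, which keeps resting and memory T cells alive. Tcf7 and Lef1 encode TCF1 and LEF1, related HMG-box factors of naive and memory cells, Bach2 encodes a repressor of effector differentiation, Foxo1 a factor that activates Il7r, Klf2 and Ccr7 in quiescent cells, and Satb1 a chromatin organizer. T cell receptor signalling is known to inactivate FOXO1 through the kinases PI3K and AKT and to shut off much of this set.

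Since Foxo1, Tcf7, Lef1 and Klf2 encode factors with short, known binding words, the DNA before the start sites was examined. RefSeq windows of 300 bases (250 before and 50 after a start, GRCm38.p6) were found for 7 of the 9 genes, with 15 windows in all. The 3 words counted, on both strands, were GTAAACA for FOXO factors, CTTTGAA for TCF1 and LEF1, and GGGCGGG for KLF and SP factors. The windows of Il7r and Bach2, which moved in opposite directions with Treg, and a window of Tcf7 that holds a FOXO word are shown 5′ to 3′ on the gene's strand, with matches in capitals.
Il7r, chr15:9529827-9530126, minus strand: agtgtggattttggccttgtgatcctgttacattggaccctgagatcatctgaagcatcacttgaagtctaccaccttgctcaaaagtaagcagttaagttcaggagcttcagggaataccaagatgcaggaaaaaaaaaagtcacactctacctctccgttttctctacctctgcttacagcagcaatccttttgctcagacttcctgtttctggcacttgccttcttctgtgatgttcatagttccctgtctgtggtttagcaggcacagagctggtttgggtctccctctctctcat
Bach2, chr4:32417185-32417484, plus strand: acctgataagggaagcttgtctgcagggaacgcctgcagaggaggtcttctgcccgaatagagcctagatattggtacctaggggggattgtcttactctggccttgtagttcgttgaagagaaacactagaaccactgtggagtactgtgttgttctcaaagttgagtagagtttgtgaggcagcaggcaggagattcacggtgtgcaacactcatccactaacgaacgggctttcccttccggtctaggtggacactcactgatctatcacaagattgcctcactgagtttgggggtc
Tcf7, chr11:52282546-52282845, minus strand: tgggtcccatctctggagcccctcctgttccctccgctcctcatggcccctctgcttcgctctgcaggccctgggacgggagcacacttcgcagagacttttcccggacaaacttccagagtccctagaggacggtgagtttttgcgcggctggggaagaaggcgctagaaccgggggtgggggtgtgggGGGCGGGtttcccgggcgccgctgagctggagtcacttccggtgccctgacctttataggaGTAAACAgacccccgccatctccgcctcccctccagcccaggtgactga
The FOXO word occurred in 1 of the 15 windows, the Tcf7 window shown, against 3.65% of all 32851 windows. The TCF1 and LEF1 word occurred in 0 of the 15 windows, against 5.14% of all windows. The KLF and SP word occurred in 8 of the 15 windows, in Foxo1, Klf2, Lef1, Satb1 and Tcf7, against 25.57% of all windows. The Il7r and Bach2 windows held none of the 3 words. Windows of the same gene overlap in part, and these counts describe letters, not binding.

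In naive HP1a WT cells, levels per kb of exon ran from Ccr7 at 634 CPM per kb, Tcf7 at 482, Klf2 at 339 and S1pr1 at 271 down to Lef1 at 140, Il7r at 126, Foxo1 at 72.3, Satb1 at 55.7 and Bach2 at 14.8 CPM per kb. All 9 genes were thus far above the counting floor. For 8 of the 9 genes the naive groups held the 4 highest means, and the lowest naive group did not overlap the grafted group next in order. The share of all genes with such an order was not computed, so it is not shown to be particular to this set. The exception was Il7r, whose highest mean was in HP1a KO Tconv (602 CPM ± 150 SD, n = 3). For S1pr1, a group further down the order did overlap. A library of HP1g WT Tconv was at 976 CPM, above naive HP1a WT libraries at 888 and 958 CPM. Below the naive groups, neighbouring grafted groups overlapped for every gene apart from Bach2, where HP1a WT Tconv with Treg stood apart, and Il7r, where HP1g KO and HP1a WT Tconv with Treg stood apart at the bottom.

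**Figure D1:**
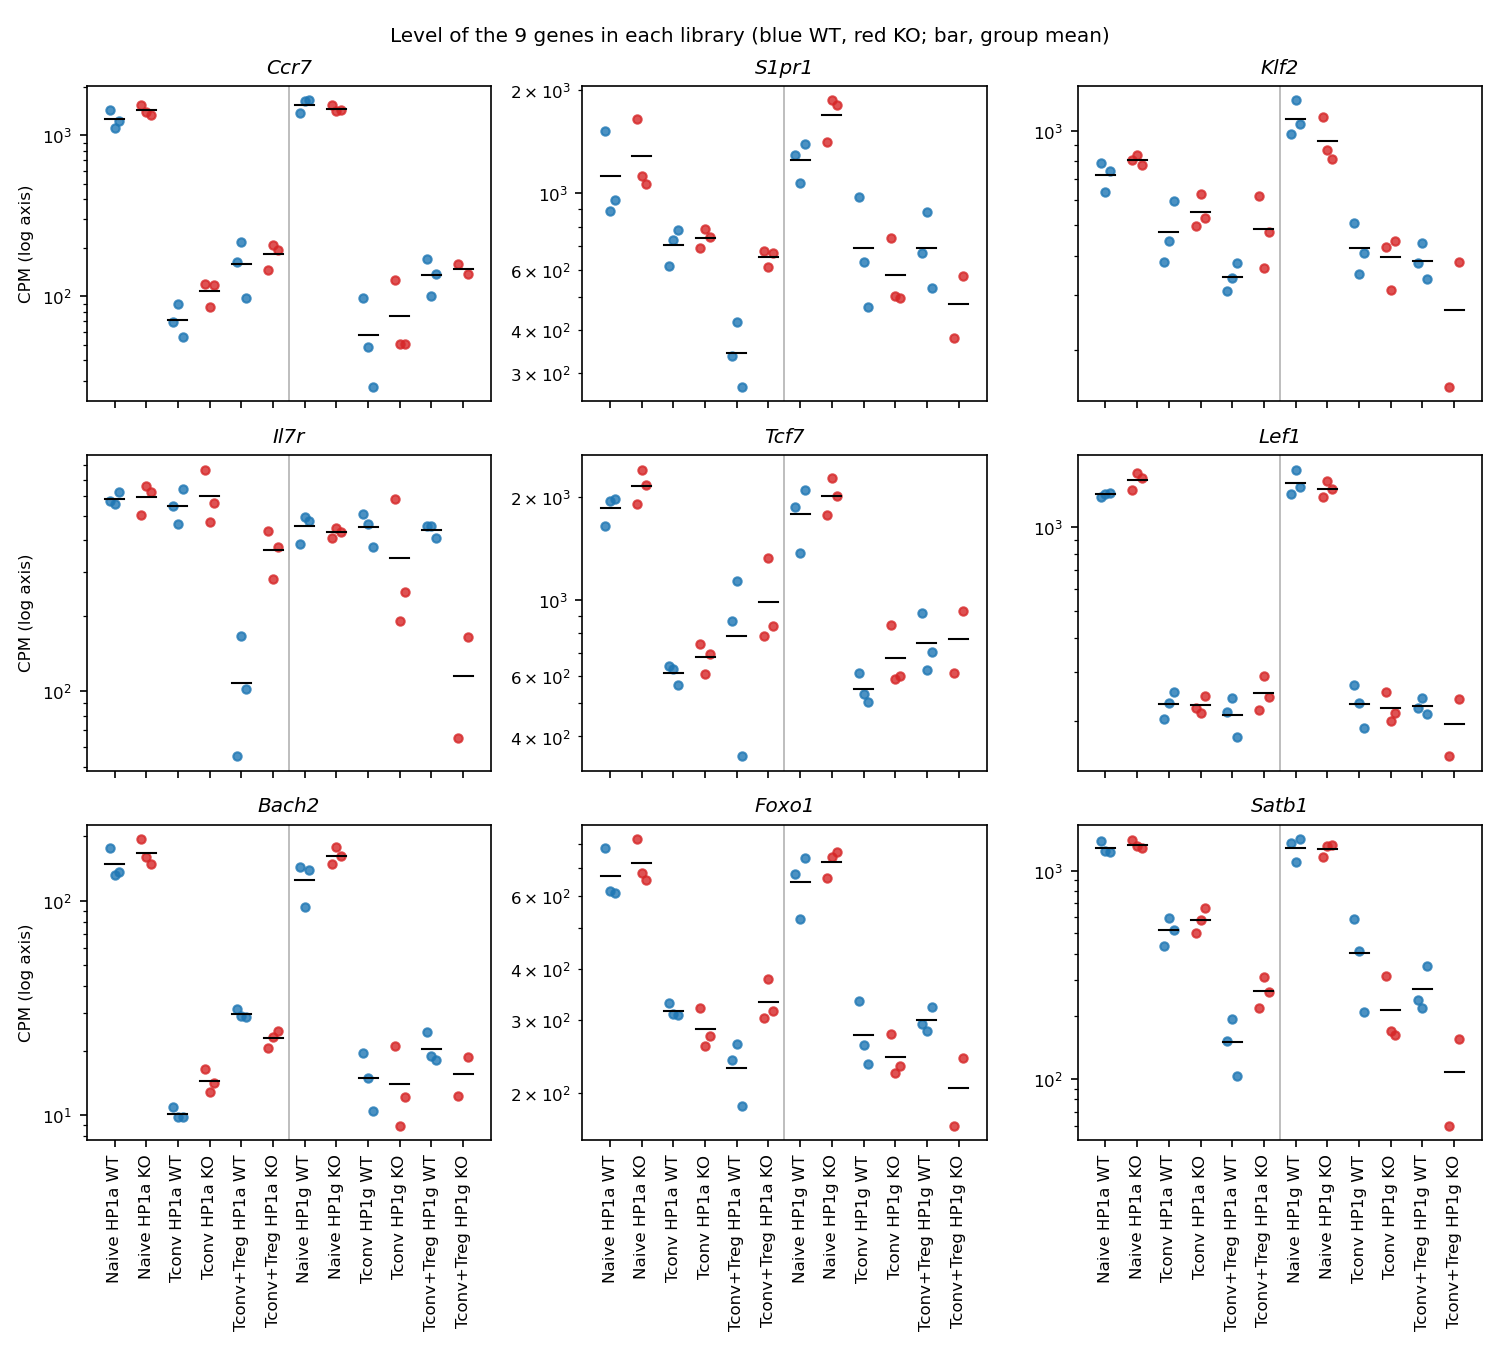
Level of each gene in CPM (log axis) in the 35 libraries, by group, with WT in blue, KO in red and group means as bars. Naive groups have the highest means for all genes other than Il7r, whose lowest groups are HP1a WT and HP1g KO Tconv with Treg (means 108 and 115 CPM).

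The passage from naive to grafted cells gave the most calls among the 9 genes. The comparison of Tconv with naive cells of the same genotype asks how the identity genes differed after transfer and the response to the graft. Transfer into irradiated hosts, the weeks spent there and the Vβ6 sort also separate these groups. They cannot be told apart from the response to the graft. Of the 9 genes, 6 were called lower in HP1a WT, 6 in HP1a KO, 7 in HP1g WT and 8 in HP1g KO cells, and 0 were called higher. Apart from the fold threshold, 8 of the 9 were lower with an adjusted p below 0.05 in each of the 4 comparisons, the exception being Il7r. The share of all genes at that adjusted p alone was not computed. An unadjusted p below 0.05 in edgeR, in either direction, was common among all genes. It was found for 8469 of 16027, 7711 of 15773, 6717 of 15812 and 7861 of 15912 genes tested, and for 8 of the 9 each time. Called means a Benjamini-Hochberg adjusted p below 0.05 in edgeR's quasi-likelihood test over all genes tested and a log2 fold change beyond 1 in either direction. Of all genes tested, 23.1%, 19.7%, 23.5% and 23.1% were called in the 4 comparisons in that order, and 10.2%, 7.24%, 8.55% and 7.3% were called lower. The median log2 fold change of the 9 genes was -1.30, -1.32, -1.68 and -1.55 (all genes tested, -0.04, -0.01, -0.03 and 0.02).

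Ccr7, the lymph node entry receptor, fell furthest. It was at 1436, 1112 and 1231 CPM in naive and 69.5, 89.8 and 56.1 CPM in Tconv of HP1a WT mice, a 17.4-fold lower level (log2 fold change -4.12 ± 0.20 SE, adjusted p = 2.05e-06). The log2 fold change was -3.71 ± 0.15 in HP1a KO, -4.75 ± 0.47 in HP1g WT and -4.24 ± 0.42 in HP1g KO cells. The highest grafted library of any group was at 216 CPM and the lowest naive library at 1112 CPM.

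S1pr1 and Klf2, the exit receptor and the factor that drives it, were lower with an adjusted p below 0.05 in all 4 comparisons and passed the fold threshold in some of them. S1pr1 was at 1521, 888 and 958 CPM in naive and 615, 729 and 779 CPM in Tconv of HP1a WT mice, groups that did not overlap (log2 fold change -0.66 ± 0.21, adjusted p = 0.0307, short of the fold threshold). It was at -0.77 ± 0.17 in HP1a KO and -0.86 ± 0.28 in HP1g WT cells (adjusted p = 0.0102 and 0.0478), and was called only in HP1g KO cells, where 1409, 1864 and 1806 CPM in naive stood against 742, 503 and 494 CPM in Tconv (log2 fold change -1.52 ± 0.19, adjusted p = 0.000377). Klf2 was called in both genotypes of the HP1g line, at -1.38 ± 0.20 in WT and -1.21 ± 0.18 in KO, and was at -0.60 ± 0.17 and -0.53 ± 0.10 in HP1a WT and KO cells (adjusted p = 0.0188 and 0.00463). Klf2 lies within the span of Eps15l1, a gene on the opposite strand whose exons do not overlap those of Klf2 and which had 9.75% as many counts.

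Il7r, the survival receptor, was not called in any of the 4 comparisons. In HP1a WT mice it was at 574, 559 and 625 CPM in naive and 548, 467 and 639 CPM in Tconv, and the groups overlapped. Its log2 fold change was -0.08 ± 0.12 in HP1a WT, 0.04 ± 0.18 in HP1a KO, -0.01 ± 0.18 in HP1g WT and -0.31 ± 0.42 in HP1g KO cells. The HP1g KO Tconv libraries were themselves apart, at 585, 191 and 249 CPM, and the library with the high value also held more globin RNA (Hbb-bs at 1452 CPM against 68.6 and 133 CPM in the others).

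Tcf7 and Lef1, the HMG-box pair, fell in all 4 comparisons and by unequal amounts. Tcf7 fell by 1.55 to 1.69 and Lef1 fell by 2.50 to 2.67 on the log2 scale. Lef1 was at 1286, 1310 and 1327 CPM in naive and 203, 232 and 255 CPM in Tconv of HP1a WT mice (adjusted p = 1.09e-06). Lef1os1, an antisense gene whose exons overlap those of Lef1, had 6.73% as many counts. Counting by strand was not stated, so the reads of the pair may not be told apart.

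Bach2, the repressor of effector differentiation, was called lower in all 4 comparisons by 3.07 to 3.86 on the log2 scale. In HP1a WT mice it was at 177, 132 and 137 CPM in naive and 10.9, 9.84 and 9.78 CPM in Tconv (adjusted p = 4.91e-07). Foxo1, the quiescence factor, fell by 1.08, 1.32, 1.23 and 1.54 on the log2 scale in the 4 comparisons, and the call in HP1a WT cells was lost without naive HP1a WT replicate 1. Satb1, the chromatin organizer, fell by 1.30 and 1.18 in HP1a WT and KO and by 1.68 and 2.53 in HP1g WT and KO cells. C230085N15Rik overlaps the span of Satb1 on the same strand, with exons that do not overlap, and had 9.85% as many counts. Each other gene that overlaps Satb1 had 3.70% or less.

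**Figure D2:**
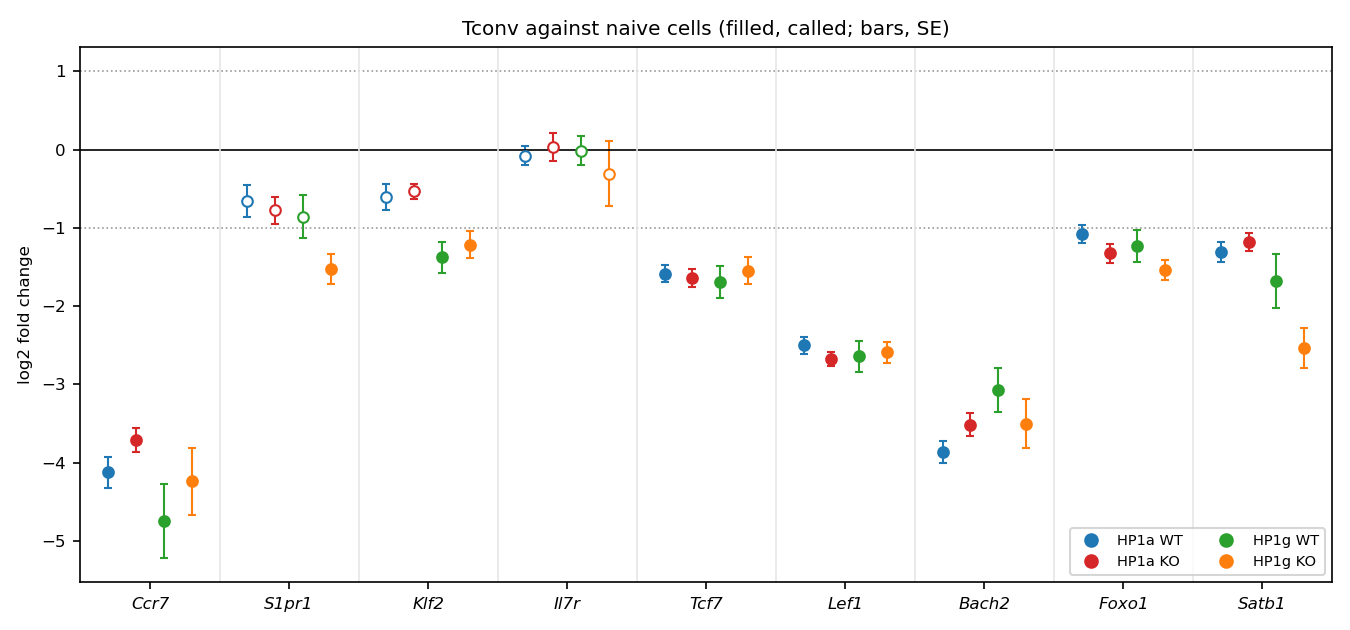
Log2 fold change of each gene in Tconv against naive cells, with SE bars, in the 4 combinations of line and genotype. Filled points were called, dotted lines mark a log2 fold change of 1 in either direction, and all points of Il7r lie between -0.31 and 0.04.

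Companion genes of the same pathways moved in the same 4 comparisons. Of 15 further naive-associated genes, 10, 11, 11 and 11 were called lower and 0 higher, with medians of -1.96, -1.80, -2.55 and -2.33. They included Igfbp4 at -5.88 ± 0.14 and Dapl1 at -5.32 ± 0.19 in HP1a WT cells. Of 14 effector regulators and receptors, 14, 14, 14 and 13 were called higher, among them the granzyme gene Gzmb and the late effector receptor gene Klrg1. These 14 include the gene of CD44, a marker by which naive cells were selected, so that gene is no finding here. Of 10 partners and relatives of TCF1 and LEF1, 5, 3, 3 and 3 were called lower, including the co-activator gene Bcl9 at -2.90 ± 0.35 in HP1a WT cells and the corepressor gene Tle1 at -3.81 ± 0.43 in HP1g KO cells. Some of these calls lay near the counting floor. Tcf7l1, called in all 4, had means of 0.20 to 0.38 CPM in Tconv. Tcf7l2, called in HP1a WT cells, had a mean of 0.028 CPM in Tconv.

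Few genes around Il7r and Foxo1 passed both thresholds. Of 7 genes of interleukin-7 receptor signalling, 1, 1, 1 and 2 were called, all higher. Cish, a target of STAT5 that restrains cytokine signalling, was the gene called in all 4, at 4.65 ± 0.15 in HP1a WT cells. Of 9 genes of the PI3K, AKT and FOXO pathway, 0, 0, 1 and 0 were called. Of 6 egress genes tested, 0, 0, 0 and 1 were called, the last being Cxcr4 at -1.10 ± 0.18 in HP1g KO cells. Being uncalled does not show that a gene was level. Of the 61 companions tested, 30, 29, 30 and 30 were called, against the 19.7% to 23.5% of all genes given above. An unadjusted p below 0.05 was found for 54, 49, 41 and 47 of them. Of all genes tested, 8469 of 16027, 7711 of 15773, 6717 of 15812 and 7861 of 15912 had such a p.

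These groups also differed in markers of other cells, and the part of those markers in the results was not tested. Of the erythroid markers, 4 were called lower in HP1a WT, 0 were called in HP1a KO, and 6 and 5 were called higher in HP1g WT and KO Tconv. Of the 10 myeloid markers, 6, 9, 10 and 10 were tested in the 4 comparisons, and 1, 6, 6 and 7 were called higher. In HP1a WT cells 1 myeloid marker was called lower. B cell markers called lower numbered 5, 3, 2 and 5 of the 7, 8, 5 and 9 tested, with 1 called higher in each comparison. For CD8 T or NK cells, 2, 3, 3 and 3 of the 2, 3, 4 and 4 markers tested were called. Of the 10 regulatory T cell markers, 7, 7, 8 and 10 were called, of which 6, 6, 7 and 8 were higher (medians 1.86, 1.74, 1.57 and 2.02), and their sum was 155 to 253 CPM in naive libraries and 618 to 1029 CPM in Tconv. In bulk samples, fewer cells of a type and less RNA per cell cannot be told apart.

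Exposure to Treg split the set in HP1a WT cells. The comparison of Tconv with Treg against Tconv alone asks what suppression did in the same genotype. In HP1a WT cells 4 of the 9 genes were called, with S1pr1, Il7r and Satb1 lower and Bach2 higher (5.96% of all genes tested were called). In HP1a KO cells 1 gene, Satb1, was called lower (0.44% of all genes). No member was called in HP1g WT (0.0126% of all genes) or HP1g KO cells (0%). In edgeR, 2 of the 9 genes in HP1g WT and 0 in HP1g KO cells had an unadjusted p below 0.05, and DESeq2 also called 0 of the 9 in either. Over all genes, edgeR called 2 and 0 in those groups, with 1095 and 1293 at an unadjusted p below 0.05, and DESeq2 called 57 and 404.

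Il7r showed the widest change. In HP1a WT mice it was at 548, 467 and 639 CPM in Tconv and 55.0, 167 and 102 CPM in Tconv with Treg, a 5.05-fold lower level with groups far apart (log2 fold change -2.34 ± 0.38, adjusted p = 0.0135). In HP1a KO cells it was at 766, 474 and 565 CPM without and 438, 280 and 378 CPM with Treg (-0.71 ± 0.23, adjusted p = 0.209). In HP1g WT cells the values of 511, 467 and 378 CPM without and 457, 456 and 410 CPM with Treg overlapped (-0.03 ± 0.12, adjusted p = 0.978). In HP1g KO cells they were 585, 191 and 249 CPM without and 64.8 and 165 CPM with Treg (-1.55 ± 0.64, adjusted p = 0.655). The call in HP1a WT cells held in 4 of 6 fits with a library removed, and was lost without Tconv HP1a WT replicate 1 or 3 (highest adjusted p = 0.0708).

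Satb1 moved the same way. In HP1a WT mice it was at 436, 596 and 519 CPM in Tconv and 152, 195 and 104 CPM in Tconv with Treg (-1.77 ± 0.25, adjusted p = 0.00751), a call that held in all 6 fits with a library removed. In HP1a KO mice it was at 501, 577 and 662 CPM without and 220, 310 and 263 CPM with Treg (-1.12 ± 0.15, adjusted p = 0.0346), a call kept in 2 of 6 such fits and lost without Tconv with Treg replicate 1 or 3 or Tconv replicate 2 or 3 of that genotype (highest adjusted p = 0.178). The values in the HP1g line were -0.58 ± 0.39 in WT and -0.97 ± 0.50 in KO cells.

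S1pr1 was at 615, 729 and 779 CPM in HP1a WT Tconv and 335, 421 and 273 CPM with Treg (-1.03 ± 0.19, adjusted p = 0.0205). The change lay at the fold threshold, and the call was kept only without Tconv with Treg HP1a WT replicate 2 among the 6 fits with a library removed (log2 fold change -1.21 to -0.90, highest adjusted p = 0.115). In the other groups S1pr1 differed by -0.26 to 0.00 on the log2 scale. Klf2, which drives it, was at -0.45 ± 0.20, -0.17 ± 0.19, -0.13 ± 0.16 and -0.54 ± 0.40 in HP1a WT, HP1a KO, HP1g WT and HP1g KO cells and was not called.

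Bach2 and Ccr7 went the other way. Bach2 was at 10.9, 9.84 and 9.78 CPM in HP1a WT Tconv and 31.4, 28.9 and 28.9 CPM with Treg, a 2.96-fold higher level that still lay below all naive libraries (1.56 ± 0.17, adjusted p = 0.00273). That call held in all 6 fits with a library removed. Bach2 was at 0.67 ± 0.14 in HP1a KO (adjusted p = 0.0971), 0.45 ± 0.24 in HP1g WT and 0.16 ± 0.41 in HP1g KO cells. Ccr7 was at 69.5, 89.8 and 56.1 CPM in HP1a WT Tconv and 162, 216 and 97.5 CPM with Treg (1.16 ± 0.30, adjusted p = 0.0641), above the fold threshold and short of the test in edgeR, while DESeq2 called it (adjusted p = 0.00457). It was at 0.77 ± 0.18 in HP1a KO, 1.24 ± 0.48 in HP1g WT and 0.97 ± 0.44 in HP1g KO cells, and in each of the 4 combinations all libraries with Treg were above all libraries without it.

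Tcf7, Lef1 and Foxo1 were not called. Tcf7 was at 0.37 ± 0.37, 0.54 ± 0.21, 0.45 ± 0.16 and 0.20 ± 0.27 on the log2 scale in HP1a WT, HP1a KO, HP1g WT and HP1g KO cells. In HP1a WT cells with Treg its libraries spread from 350 to 1138 CPM. Lef1 lay between -0.18 and 0.15 in the 4 combinations. Foxo1 was at -0.45 ± 0.16 in HP1a WT and 0.23 ± 0.12 in HP1a KO cells, with groups that did not overlap in the former.

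**Figure D3:**
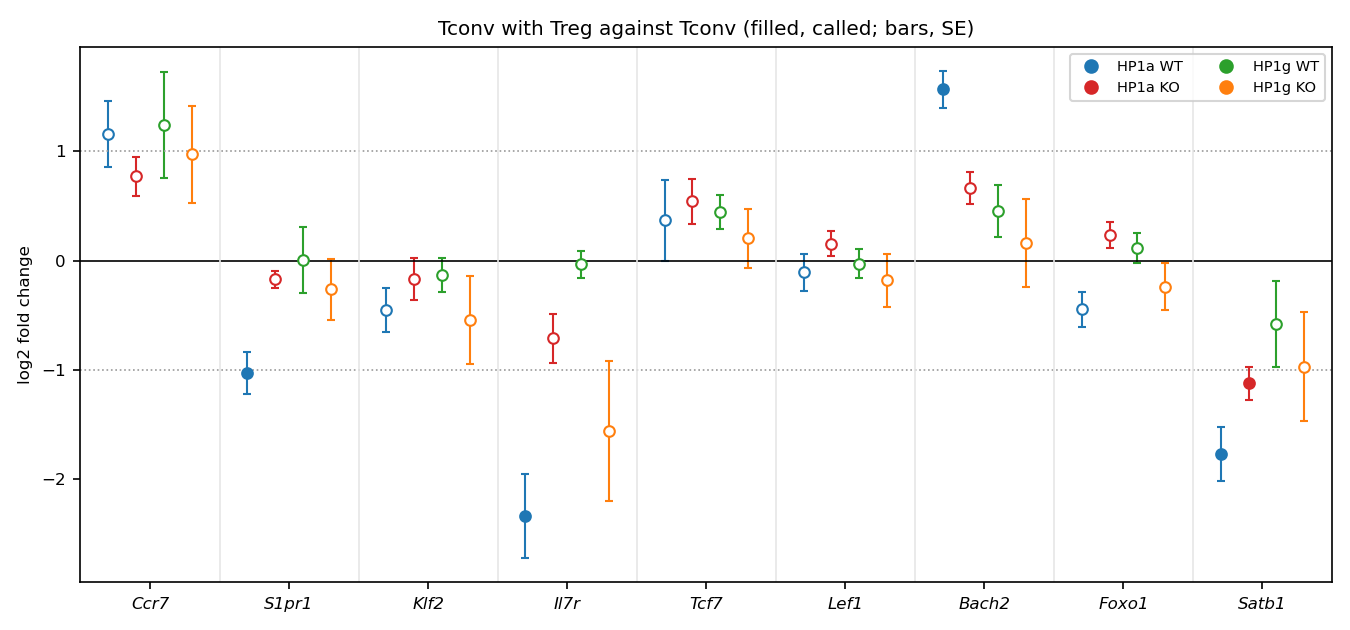
Log2 fold change of each gene in Tconv with Treg against Tconv alone, with SE bars, by line and genotype. The filled points are S1pr1, Il7r, Satb1 and Bach2 in HP1a WT and Satb1 in HP1a KO cells, and dotted lines mark a log2 fold change of 1 in either direction.

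Among the companions, 6 of the 15 naive-associated genes were called in HP1a WT cells with Treg, 5 higher and 1 lower (median 0.54). Ramp1, Dapl1 and Igfbp4 rose by 3.04 ± 0.26, 2.49 ± 0.34 and 2.28 ± 0.18, and Treml2 fell by 1.42. In HP1a KO cells 2 were called, both higher, namely Dapl1 at 2.13 ± 0.16 and Actn1 at 1.03 ± 0.12. Of the 14 effector genes, Tbx21, Klrg1 and Bhlhe40 were called lower (-1.71 ± 0.24, -1.29 ± 0.29 and -1.10 ± 0.16) and Eomes higher (3.52 ± 0.45) in HP1a WT cells, and 0 were called in HP1a KO cells. Cish fell by 2.48 in HP1a WT and by 1.25 in HP1a KO cells, and Cxcr4, a chemokine receptor that retains cells in bone marrow, rose by 1.90 in HP1a WT cells. Of the 62 companions, edgeR called 0 in either genotype of the HP1g line, where 9 in WT and 12 in KO cells had an unadjusted p below 0.05.

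Markers of regulatory T cells differed with Treg in some of these groups. The sum of 10 such markers was 1190 to 1492 CPM in HP1a WT Tconv with Treg against 850 to 1005 CPM without, 736 to 962 against 791 to 1029 CPM in HP1a KO, 693 to 905 against 618 to 909 CPM in HP1g WT and 938 to 1637 against 652 to 954 CPM in HP1g KO cells. Foxp3, the defining marker, was at 13.5, 69.2 and 18.1 CPM in HP1a WT Tconv with Treg and at 12.1 CPM or less without, and 5 of the 10 markers were called there, 4 higher and 1 lower. Compared by group, the sum was thus highest in the same 2 groups that had the lowest Il7r. Within HP1a WT Tconv with Treg, the library highest in Foxp3 was also highest in Il7r, at 167 CPM. The part of these markers in the result was not tested.

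The comparison of KO with WT in a given condition asks what loss of HP1a or HP1g did to the set. In edgeR 0 of the 9 genes were called in any of the 6 comparisons. In naive cells 1 gene in each line had an unadjusted p below 0.05, and the percentages of all genes called were 0% in the HP1a line and 0.00669% in the HP1g line. In Tconv 2 and 0 of the 9 had such a p, and 0.103% and 0.0437% of all genes were called. In Tconv with Treg 5 and 3 had such a p, 0.123% and 0% of all genes were called, and DESeq2 called 1 and 2 of the 9, against 0 in the other comparisons. In the HP1a naive and HP1g Tconv with Treg comparisons, where edgeR called 0 of all genes, 291 and 2028 had an unadjusted p below 0.05 and DESeq2 called 15 and 628. DESeq2 also called more of all genes than edgeR in the other comparisons. It called 713 against 20 in Tconv with Treg of the HP1a line. In Tconv it called 207 and 262 in the HP1a and HP1g lines, against 16 and 7, and in naive HP1g cells 38 against 1. In edgeR, 863 of 14939 genes in naive HP1g cells had an unadjusted p below 0.05, and 1975 of 16256 in HP1a Tconv with Treg. In Tconv, 1324 of 15521 genes in the HP1a and 1349 of 16015 in the HP1g line had one.

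In naive cells the 9 log2 differences lay between 0.01 and 0.21 in the HP1a line. In the HP1g line they lay between -0.21 and 0.45, the highest being S1pr1, at 1409, 1864 and 1806 CPM in KO and 1294, 1069 and 1392 CPM in WT cells (0.45 ± 0.18, adjusted p = 0.63). In Tconv of the HP1a line the highest were Ccr7 at 0.59 ± 0.20 and Bach2 at 0.51 ± 0.14 (adjusted p = 0.552 and 0.549). Bach2 was at 16.5, 12.8 and 14.2 CPM in KO and 10.9, 9.84 and 9.78 CPM in WT cells, which did not overlap. In Tconv of the HP1g line Satb1 differed most, at -0.89 ± 0.43 (adjusted p = 0.687), with overlapping groups.

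In Tconv with Treg, Il7r differed most in both lines and in opposite directions. In the HP1a line it was at 438, 280 and 378 CPM in KO and 55.0, 167 and 102 CPM in WT cells (1.74 ± 0.39, adjusted p = 0.134 in edgeR and 0.000537 in DESeq2). In the HP1g line it was at 64.8 and 165 CPM in KO and 457, 456 and 410 CPM in WT cells (-1.93 ± 0.40, adjusted p = 0.202 in edgeR and 2.78e-05 in DESeq2). KO and WT libraries did not overlap in either line. When all libraries of a line entered 1 edgeR fit, Il7r was called in both lines (adjusted p = 0.00321 and 0.0299). With the set-aside library included in the HP1g comparison, where it had 326 CPM, the log2 fold change was -1.14 (adjusted p = 0.699). Without KO replicate 2 it was -2.78 and passed the test (adjusted p = 0.0191), with a lone KO library that was assumed to vary like the WT ones.

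S1pr1, Satb1, Foxo1, Klf2 and Lef1 had values of the same sign as Il7r in each line, and none was called in edgeR. S1pr1 was at 680, 609 and 670 CPM in HP1a KO and 335, 421 and 273 CPM in HP1a WT Tconv with Treg (0.91 ± 0.18, adjusted p = 0.105), and at -0.53 ± 0.28 in the HP1g line (adjusted p = 0.539). Satb1 was at 220, 310 and 263 CPM in HP1a KO and 152, 195 and 104 CPM in HP1a WT cells (0.80 ± 0.25, adjusted p = 0.265), and at 59.9 and 157 CPM in HP1g KO and 239, 220 and 350 CPM in HP1g WT cells (-1.30 ± 0.44, adjusted p = 0.333 in edgeR and 0.0332 in DESeq2). Foxo1 was at 0.52 ± 0.18 in the HP1a and -0.53 ± 0.19 in the HP1g line (adjusted p = 0.309 and 0.35). Klf2 was at 0.49 ± 0.21 in the HP1a and -0.51 ± 0.38 in the HP1g line, and Lef1 at 0.24 ± 0.18 and -0.20 ± 0.21. Ccr7, Tcf7 and Bach2 lay between -0.40 and 0.32 in the HP1a line and between -0.38 and 0.13 in the HP1g line. Bach2 had the negative value in the HP1a line (-0.40 ± 0.17, adjusted p = 0.397).

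**Figure D4:**
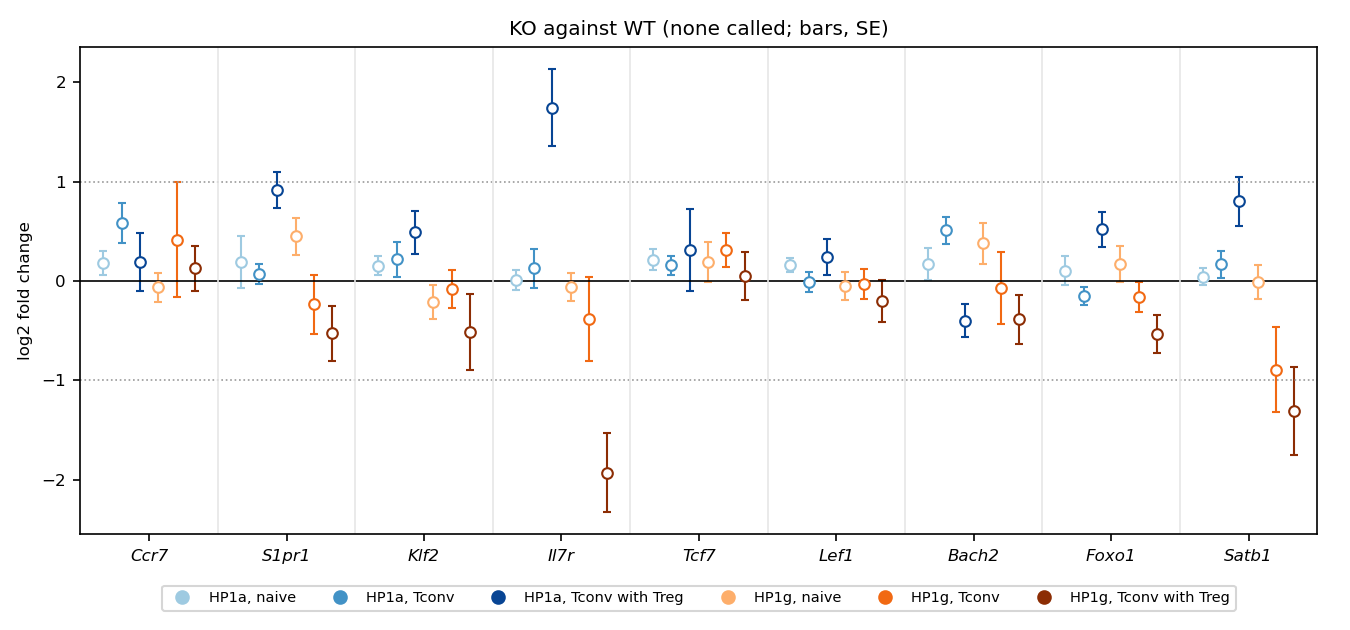
Log2 fold change of each gene in KO against WT cells, with SE bars, in naive cells, Tconv and Tconv with Treg of the HP1a line (blue shades) and HP1g line (orange shades). No point was called, and the points farthest from 0 are Il7r in Tconv with Treg, at 1.74 in the HP1a and -1.93 in the HP1g line.

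The companions called between genotypes were few. Cish was higher in HP1a KO than WT Tconv with Treg (1.21 ± 0.14), and Cxcr4 was higher in HP1a KO than WT Tconv (1.17 ± 0.12). In edgeR 0 of the 62 were called in naive HP1a cells, where 2 had an unadjusted p below 0.05, and 0 in naive cells, Tconv and Tconv with Treg of the HP1g line, where 10, 8 and 17 had one. The median log2 fold change of the 9 genes was 0.49 in HP1a and -0.51 in HP1g Tconv with Treg (all genes tested, -0.01 and 0.01). The sum of regulatory T cell markers with Treg was 736 to 962 CPM in HP1a KO against 1190 to 1492 CPM in its WT, and 938 to 1637 CPM in HP1g KO against 693 to 905 CPM in its WT. The sum of myeloid markers was 236 to 640 CPM in HP1a KO and 109 to 198 CPM in HP1a WT cells with Treg. The sum of erythroid markers was 85.5 to 536 CPM in HP1a KO against 2.29 to 36.1 CPM in HP1a WT cells with Treg (median log2 fold change 5.14, 0 of 6 called), and 20.1 to 580 against 1.17 to 2.79 CPM without Treg (median 6.64, 0 of 5 called). In the HP1g line it was 85.5 to 5048 CPM in KO and 116 to 2705 CPM in WT cells with Treg. The part of these markers in the results was not tested.

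Whether the change from naive cells to Tconv, or the change with Treg, differed between genotypes was tested as an interaction within each line. For the change from naive cells to Tconv, 0 of the 9 genes were called in either line, 0 had an unadjusted p below 0.05 in edgeR and 0 were called by DESeq2 (0.00587% and 0.0235% of all genes were called in the HP1a and HP1g lines). For the change with Treg, 0 were called in edgeR in either line (0.139% and 0% of all genes). DESeq2 called 1 of the 9 in the HP1a line, Il7r (adjusted p = 0.0336), and 356 of all genes. In edgeR 4 of the 9 had an unadjusted p below 0.05 in that line, and 1674 of 17205 genes tested did. In the HP1g line 1 gene had such a p, and 667 of all genes did, while DESeq2 called 0 of the 9 and 15 of all genes.

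The interaction values give the change with Treg in KO minus that in WT cells. In the HP1a line they were 1.63 ± 0.47 for Il7r (adjusted p = 0.225), 0.86 ± 0.21 for S1pr1 (adjusted p = 0.148), 0.68 ± 0.20 for Foxo1 (adjusted p = 0.232) and -0.90 ± 0.19 for Bach2 (adjusted p = 0.111). Without Tconv with Treg HP1a WT replicate 2, S1pr1 was called (adjusted p = 0.0476). Cish, the STAT5 target, was called in this comparison, at 1.23 ± 0.16. In the HP1g line the largest value was Il7r at -1.54 ± 0.65 (adjusted p = 1).

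The effect of Treg on WT cells was also compared between lines. Il7r was the member called (1.56% of all genes were called), with a change with Treg that was 2.32 ± 0.43 higher on the log2 scale in HP1g WT than in HP1a WT cells (adjusted p = 0.0212). The call held in 7 of 12 fits with a library removed, and was lost without Tconv with Treg HP1g WT replicate 2, Tconv HP1a WT replicate 1 or 3, or Tconv HP1g WT replicate 2 or 3 (highest adjusted p = 0.0774). S1pr1 was at 1.05 ± 0.37, Satb1 at 1.20 ± 0.47 and Bach2 at -1.10 ± 0.29 (adjusted p = 0.19, 0.234 and 0.0871). Cish was called at 2.03 ± 0.31 and Ramp1 at -1.90 ± 0.38. Line, experiment and Treg dose cannot be told apart here.

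Across the 12 group means all pairs of genes correlated positively on the log2 scale, which describes 4 naive groups set against 8 grafted ones. Pearson's r ran from 0.27 for Ccr7 and Il7r to 0.99 for Ccr7 and Tcf7. Over the 8 grafted group means alone, which share hosts of a kind and sorting, the genes lay in separate sets. Ccr7, Tcf7 and Bach2 had r of 0.56 to 0.88 with each other, and Il7r, S1pr1, Satb1, Klf2, Foxo1 and Lef1 had r of 0.66 to 0.95 with each other. Between the sets r ran from -0.58 for S1pr1 and Bach2 to 0.16 for Tcf7 and Lef1. Within groups, over deviations of the 35 libraries from their group means, Bach2 and S1pr1 had r of 0.68, so the opposite order of group means was not seen among libraries of the same group.

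**Figure D5:**
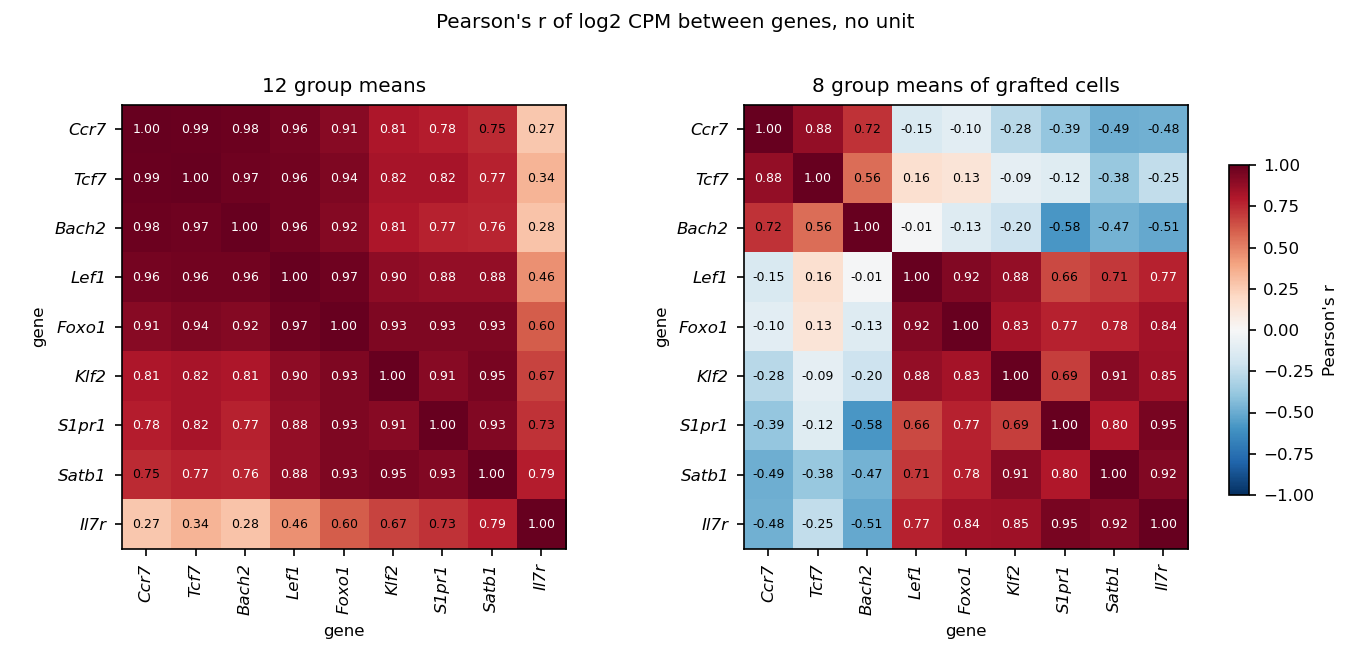
Pearson's r of log2 CPM between each pair of genes over 12 group means (left) and over the 8 means of grafted groups (right), with colour from -1 (blue) to 1 (red). At right Ccr7, Tcf7 and Bach2 stand apart from the other 6 genes, with r of -0.58 to 0.16 between the sets.

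The genes whose 12 group means were most like each member, among 9312 candidates, included the following. Mtss1 and H2-Ob followed Ccr7. Foxp1, a quiescence factor, followed Bach2 (r = 0.997), then Fntb. Pecam1, Tgfbr3 and H2-Ob followed Tcf7, Peli1, Lef1os1 and Usp24 followed Lef1, and Dapk1, Cd55 and Pik3ip1 followed Foxo1. Ppp1r13b, Ppp2r5a and Prkd2 followed S1pr1, Tmem41a, Fbl and Ifi209 followed Klf2, Klhl6, Flt3l and Hsd17b7 followed Il7r, and Heatr3, Tle1 and Tnfrsf22 followed Satb1. The lowest of these r was 0.972, over 12 points that share the step from naive to grafted cells.

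The library that the study set aside, from HP1g KO Tconv with Treg, differed widely from its group. It held S1pr1 at 3049 CPM against 380 and 574 CPM in the other libraries of the group, Lef1 at 752 against 150 and 240 CPM and Bach2 at 257 against 12.3 and 18.8 CPM. Klf2 was at 44.6 CPM and Satb1 at 38.5 CPM, below both. It took part in no comparison above unless stated.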

How the data were processed

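RNA was measured in 36 mouse CD4 T cell libraries (paired-end, SMART-Seq v4). The authors aligned reads to GRCm39 with STAR and quantified them with Salmon under Ensembl annotation, and deposited estimated counts per gene, of which 82.9% were whole numbers. These were rounded here. Sequence windows came from RefSeq (GRCm38.p6) and gene positions from GRCm39, and the builds were not mixed. CPM used TMM-scaled library sizes. Amplified reads without molecular identifiers are not independent molecules, so counting floors cover counting error only.

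Comparisons used edgeR 4.0.16 (TMM, filterByExpr, robust quasi-likelihood test, R 4.3.3) on only the groups compared, adjusted over all genes tested, with calls at an adjusted p below 0.05 and an absolute log2 fold change above 1. The script was tested on simulated data. Alternatives were DESeq2 1.42.0, RLE size factors, no filter on low counts, no fold threshold, all libraries of a line in 1 fit, a replicate block, the set-aside library included, and leaving out each library. Libraries with the same replicate number were checked for pairing by the correlation of their deviations from group means. Every pair was above 0.1 for HP1a KO against WT naive cells (0.287 to 0.654) and HP1g KO against WT Tconv (0.112 to 0.43), so pairing there rests on the data and not on the labels. Labels do not say whether replicates were separate animals, so p-values measure the spread between these samples.

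The members, companion lists and tests were chosen with earlier results of these data known. Any of the 9 members may be named in any comparison. In each comparison a companion list may contribute by name only called genes, up to 3 at either end of its log2 fold changes. For each member the 3 genes of highest Pearson r over 12 group means are named, among those averaging 5 CPM or more, without receptor segments, predicted genes and clones; genes that are not reported here are left out of the text.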

Additional observations from a re-analysis of the deposited data

Results flagged for a closer look

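The change of Il7r with Treg differed between the WT cells of the lines, by a test of the difference itself. It was 2.32 higher on the log2 scale in HP1g WT than in HP1a WT cells (SE 0.43, adjusted p = 0.0212, edgeR over all genes), and the 3 HP1a WT libraries with Treg lay below every HP1g WT library with Treg. Lines and Treg doses cannot be told apart.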

How the results depend on the processing

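Of 2322 log2 fold changes of the 9 genes under alternative settings, 2283 kept their direction and their side of the threshold or were uncalled in both fits, 17 lost a call, 22 gained one, and 0 called values changed sign. Of the 2283, 96 changed sign without being called in either fit, the largest of them at 0.532 on the log2 scale. In HP1a KO against WT Tconv with Treg, where 0 of the 9 were called, DESeq2 called 1 and the fit of all libraries of the line 1. In HP1g KO against WT Tconv with Treg, DESeq2 called 2, the fit of the line 1, and leaving out a library gave 0 to 2. For the HP1a genotype by Treg interaction, DESeq2 called 1 and leaving out a library gave 0 to 1. For the Treg effect between WT lines, DESeq2 called 2 against 1 (823 against 267 of all genes), and leaving out a library gave 0 to 1. Leaving out a library gave 2 to 4 calls for Treg in HP1a WT cells and 0 to 1 in HP1a KO cells. The cause of these changes was not tested, apart from the smaller number of samples when a library is left out, and a lone library was then assumed to vary like the others.

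The replicate block gave 5 calls against 4 for Treg in HP1a WT cells, adding Ccr7 (log2 fold change 1.11, adjusted p = 0.0185), and changed no other count of members called. Where the numbers did not meet the pairing rule, all 6 libraries were closest to their own number in HP1a KO Tconv against naive cells only. There were 2 or 3 libraries per group, and every member was far above the counting floor.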
